A study of Mus musculus with 4 samples.

Results

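The gene set described here is the core machinery of the G1 phase of the cell cycle: the D-type cyclin genes Ccnd1, Ccnd2 and Ccnd3, their kinase genes Cdk4 and Cdk6, the E-type cyclin genes Ccne1 and Ccne2 with their kinase gene Cdk2, and the brakes Cdkn1b and Rb1. The 10 genes were chosen by symbol from the 37653 genes of the deposited FPKM table and joined by gene identifier to the 55335 genes of the deposited count table. All 10 were found in both tables, and 10 of 10 passed the filter on low counts. They were measured by sequencing poly(A) RNA of mouse SSCs (spermatogonial stem cells), which renew themselves and found the germ line of the testis. The cells came from C57/BL6*DBA2 mice at postnatal day 10, were kept in culture with passaging, and were collected on a cell sorter. The design set 2 libraries of wild-type (WT) cells against 2 of cells labelled Tex11PM/Y, after the X-linked meiotic gene Tex11. The labels do not define PM, and both groups share strain, age, culture and sorting as the labels give them. No label ties the libraries to separate animals or cultures, so p-values measure only the spread between these samples, which may be technical.

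D-type cyclins are made in response to growth factors and activate CDK4 and CDK6, which begin to phosphorylate the retinoblastoma protein, the product of Rb1. E-type cyclins with CDK2 complete that phosphorylation and free the E2F transcription factors, which switch on genes of DNA replication. The product of Cdkn1b, p27, binds cyclin-CDK complexes and holds CDK2 inactive. In cultured mouse SSCs, growth factors of the medium act partly through this step, and forced expression of cyclin D2 has been reported to sustain SSC growth.

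Of the 10 genes, 6 had a promoter in the RefSeq table used here (build GRCm38.p6, the sequence of mm10), and 3 promoters are shown because their genes gave some of the steadiest and least steady CPM values described below. Each run is the 250 bases before the annotated start, 5′ to 3′ on the gene's strand. Cdk4 (chr10:127063285-127063534, plus strand) has the E-box CACGTG in capitals, Cdk2 (chr10:128705052-128705301, minus strand) has an E2F motif in capitals, and Cdkn1b (chr6:134920151-134920400, plus strand) has CCAAT, the NF-Y motif, in capitals.
Cdk4: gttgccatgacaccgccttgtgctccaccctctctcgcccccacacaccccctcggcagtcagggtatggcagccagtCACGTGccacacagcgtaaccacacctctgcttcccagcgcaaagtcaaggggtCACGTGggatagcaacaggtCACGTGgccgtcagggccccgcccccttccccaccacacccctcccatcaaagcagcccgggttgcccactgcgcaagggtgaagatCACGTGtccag
Cdk2: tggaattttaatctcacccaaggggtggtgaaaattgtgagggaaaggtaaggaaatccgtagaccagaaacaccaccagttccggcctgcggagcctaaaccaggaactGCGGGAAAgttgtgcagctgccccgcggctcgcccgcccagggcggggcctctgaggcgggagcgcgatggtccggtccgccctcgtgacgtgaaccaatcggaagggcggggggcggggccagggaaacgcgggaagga
Cdkn1b: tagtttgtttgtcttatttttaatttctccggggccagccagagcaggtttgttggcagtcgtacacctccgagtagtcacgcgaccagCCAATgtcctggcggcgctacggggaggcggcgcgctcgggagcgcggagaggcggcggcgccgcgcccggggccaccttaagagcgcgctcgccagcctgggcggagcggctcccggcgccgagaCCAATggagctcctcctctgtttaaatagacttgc
The Cdk4 run held the E-box 4 times, a motif bound by MYC and related factors. Among all 32851 promoter runs of the table, 6.02% held at least 1 E-box and 7 runs, or 0.0213%, held at least 4. Cdk2 held 1 match to the E2F motif, searched as TTTCGCGC, TTTGGCGC, TTTCCCGC or TTTGCCGC on both strands, which 1.86% of all runs held in some form. The match lies on the strand opposite to the one printed. CCAAT occurred in 33.8% of all runs, on either strand, and 2 times in that of Cdkn1b. Of the 7 runs found for the set, 3 held CCAAT (Ccnd3, Cdk2 and Cdkn1b) and 2 an E-box (Cdk4 and Cdk6). Other motifs searched on both strands were GGGCGG of SP factors (in 32.7% of runs), TTTGAA of the CHR element (16%), TGANTCA of AP-1 (6.75%), GTAAACA of FOXO factors (3.17%) and TGACGTCA of CREB (1.55%). No match printed in capitals shared a base with a match to another of these motifs. A match describes letters in this window only.

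Total counts ran from 19047148 to 19804951 per library. The Tex11PM/Y columns share a name and are called library A and library B in column order, while WT columns keep their replicate numbers. For Tex11 itself the WT libraries gave 66.4 and 126 CPM (counts scaled to TMM library size), library A 22.7 and library B 9.32. In this order, WT values are always those of replicate 1 and then replicate 2. Of 12 SSC markers, such as Gfra1, Ret and Zbtb16, none was at 0 in any library, and their sum ran from 2557 to 2684 CPM over WT and from 2570 to 2911 CPM over Tex11PM/Y. Single markers moved both ways, 6 being fitted higher in Tex11PM/Y and 6 lower. Zbtb16 held 227 and 355 CPM in WT, 608 in library A and 489 in library B. Nanos3 held 19.3, 30.6, 61.2 and 56.6 CPM in the same order, and Bcl6b 61.0, 26.8, 19.2 and 15.1 CPM. By edgeR's quasi-likelihood test these 3 of 12 reached an unadjusted p of 0.05, beside 2.7% of all genes tested. After adjustment 0 of 12 passed 0.05, beside 0%. Of 6 germ cell markers, such as Ddx4 and Dazl, none was at 0, and their sum was 1418 and 1852 CPM in WT, 2314 in library A and 1820 in library B. The 18 fibroblast markers, none of them at 0, summed to 19834 CPM in WT replicate 1, 5665 in WT replicate 2, 599 in library A and 7045 in library B. The 9 macrophage markers, none at 0, summed to 663, 515, 25.1 and 1235 CPM in that order. The 6 myoid markers, none at 0, summed to 195, 34.6, 7.504 and 32.0 CPM. Acta2 made up most of this sum, with 178, 24.3, 2.72 and 22.1 CPM. Tagln, Cnn1, Des and Actg2 were, like Acta2, highest in WT replicate 1. Myh11 was lowest there (2.70 CPM) and highest in library B (5.93 CPM). Sertoli markers summed to between 14.8 and 27.1 CPM, with Fshr at 0 in every library. In bulk RNA, fewer cells of a type and less RNA per cell cannot be told apart. Chromosome 8 genes were raised in WT replicate 1 by a median of 0.40 log2 over the mean of the other 3 libraries, and chromosome 12 genes in WT replicate 2 by 0.57. None of the 10 genes lies on either, and on their 7 chromosomes such medians ran from -0.10 to 0.093.

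Per unit of length, Cdk4 was the most abundant of the 10 transcripts in each library and Cdk6 the least. In deposited FPKM (fragments scaled to transcript length and library size), Cdk4 averaged 88.2 over the 4 libraries, with a range of 84.1 to 92.3. Ccnd3 followed at 47.3 (31.9 to 69.9) and Ccnd2 at 43.4 (38.5 to 50.2), and these cyclins changed places between libraries, Ccnd3 being the higher in 2 of 4. Cdk2 averaged 22.9 FPKM (21.2 to 24.6). Below it the ranges of Rb1 (mean 16.9), Ccnd1 (14.9), Cdkn1b (9.69) and Ccne1 (6.77) each overlapped that of the next gene, the last of them that of Ccne2 (4.25). Only 3 steps in this order were free of overlap: Cdk4 over Ccnd3, Ccnd2 over Cdk2, and Ccne2 over Cdk6, which averaged 0.861 FPKM. Cdk4 made up between 98.5% and 99.3% of the summed FPKM of Cdk4 and Cdk6.

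**Figure D1:**
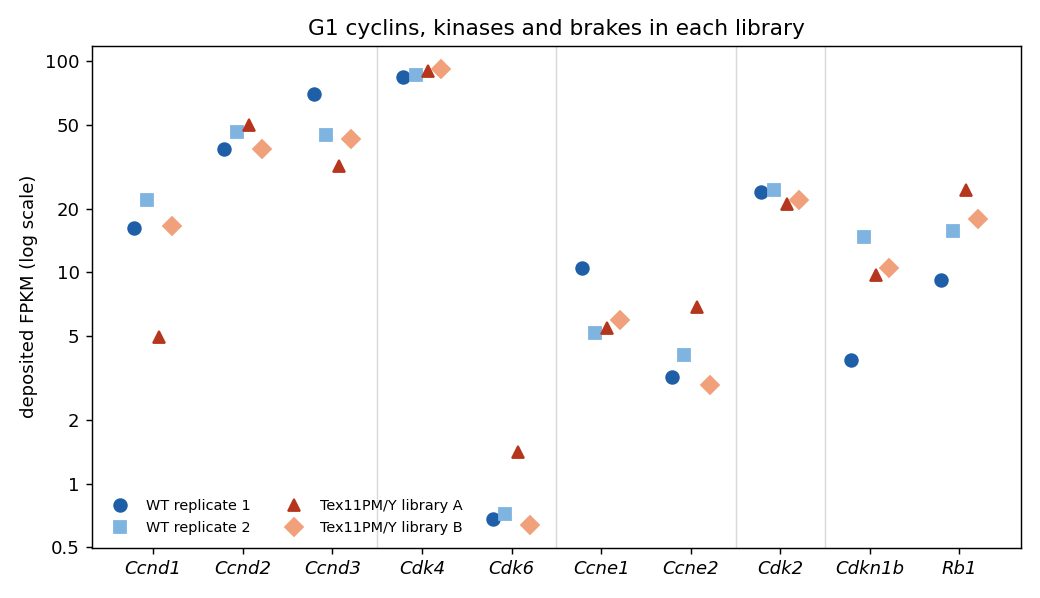
Deposited FPKM (log axis) of each gene in each library, with 1 symbol per library and genes grouped as D-type cyclins, their kinases, E-type cyclins, their kinase and the brakes. Cdk4 lies between 84.1 and 92.3 FPKM in every library, while Ccnd1 in library A (4.92 FPKM) and Cdkn1b in WT replicate 1 (3.86 FPKM) lie below their other libraries.

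Between the genotypes, none of the 10 genes passed the test. By edgeR's quasi-likelihood test, 0 of 10 passed an adjusted p of 0.05, where 0% of the 17262 genes tested passed, and 0 of 10 reached an unadjusted p of 0.05, which 2.7% of all genes did. Tex11 itself did not pass either, with a log2 fold change of -2.59 (standard error 0.54, edgeR adjusted p = 0.884, unadjusted p = 0.0019). DESeq2 called 0 of the 10 and 0.00579% of all genes. With no filter on low counts edgeR called 0 of the 10, beside 0.151% of all genes (0.0484% higher and 0.103% lower). In Tex11PM/Y 5 of the 10 genes were fitted higher and 5 lower, beside 51% and 49% of all genes tested, and their median log2 fold change was 0.013 beside 0.014 over all genes tested. The CPM of the genotypes did not overlap for 5 of the 10, as was so for 32.4% of all genes tested: Cdk4 and Rb1 were the higher in both Tex11PM/Y libraries (2 of 10, beside 16.1% of all genes), and Ccnd1, Ccnd3 and Cdk2 the lower (3 of 10, beside 16.3%).

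Among the D-type cyclins, Ccnd2 was the steadiest and Ccnd1 the least steady. Ccnd1 (ENSMUSG00000070348.5, chromosome 7, 144929931 to 144939869, minus strand, mm10) encodes cyclin D1, the D-type cyclin most closely tied to growth factor signalling. The WT libraries gave 63.7 and 79.1 CPM, library A 18.9 and library B 57.3. Library A stood far below the other 3, and library B lay just under the lower WT library in CPM and between the WT libraries in FPKM. Its fitted log2 fold change was -0.91 (standard error 0.52, 95% interval -2.14 to 0.32, edgeR adjusted p = 0.884). Without library B, a fit that leaves 1 Tex11PM/Y library and assumes that it varies as the WT libraries do, Ccnd1 was lower by a log2 value of -1.96 and passed (edgeR adjusted p = 0.0432), as did 2.76% of all genes in that fit (2.37% as lower). Without library A the value was -0.32. Fibroblast and macrophage marker sums were also lowest in library A, as given above. Their highest libraries were others than that of Ccnd1, which was highest in WT replicate 2. The fibroblast sum was highest in WT replicate 1 (19834 CPM, against 5665 in WT replicate 2). The macrophage sum was highest in library B (1235 CPM, against 515 in WT replicate 2). The part of either cell type in the Ccnd1 count was not tested.

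Ccnd2 (ENSMUSG00000000184.12, chromosome 6, 127125162 to 127151060, minus strand) encodes cyclin D2. The WT libraries gave 299.8 and 332 CPM, library A 356 and library B 266, so that the Tex11PM/Y libraries lay on either side of both WT libraries. Fitted over all libraries, the log2 fold change was -0.023 (standard error 0.30, 95% interval -0.73 to 0.68, edgeR adjusted p = 0.992). Its sign turned with library size alone as the scaling, to 0.040. Ccnd3 (ENSMUSG00000034165.16, chromosome 17, 47505051 to 47599691, plus strand) encodes cyclin D3. It held 172 CPM in WT replicate 1, 98.2 in WT replicate 2, 69.4 in library A and 92.5 in library B. WT replicate 1 stood apart from the other 3, and WT replicate 2 and library B were close. The fibroblast marker sum was likewise highest in WT replicate 1 and lowest in library A, and its part in the Ccnd3 count was not tested. For Ccnd3 the log2 fold change was -0.74 (standard error 0.37, 95% interval -1.61 to 0.13, edgeR adjusted p = 0.884), and -0.30 without WT replicate 1.

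The makeup of the D-type cyclin pool varied within each genotype. Ccnd2 made up 30.9% and 41.0% of the summed D-type cyclin FPKM in the WT libraries, 57.7% in library A and 39.4% in library B. Ccnd3 made up 56.1% and 39.6% in WT, 36.7% in library A and 43.6% in library B. Ccnd1 made up 13.01% and 19.4% in WT, 5.66% in library A and 17.0% in library B. WT replicate 2 and library B thus had close makeups, Ccnd3 leading in WT replicate 1 and Ccnd2 in library A. The mean share of Ccnd2 was 35.9 ± 7.15% in WT and 48.5 ± 12.9% in Tex11PM/Y (SD, n = 2 each; two-sided exact permutation p = 0.667, where 2 libraries against 2 cannot go below 0.33). The shares of Ccnd1 and Ccnd3 gave the same exact permutation p of 0.667. The summed D-type cyclin level was 125 and 113 FPKM in WT, 87.0 in library A and 97.9 in library B, so both Tex11PM/Y libraries lay below both WT libraries. It was not tested, since the sum was formed after its values were seen.

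**Figure D2:**
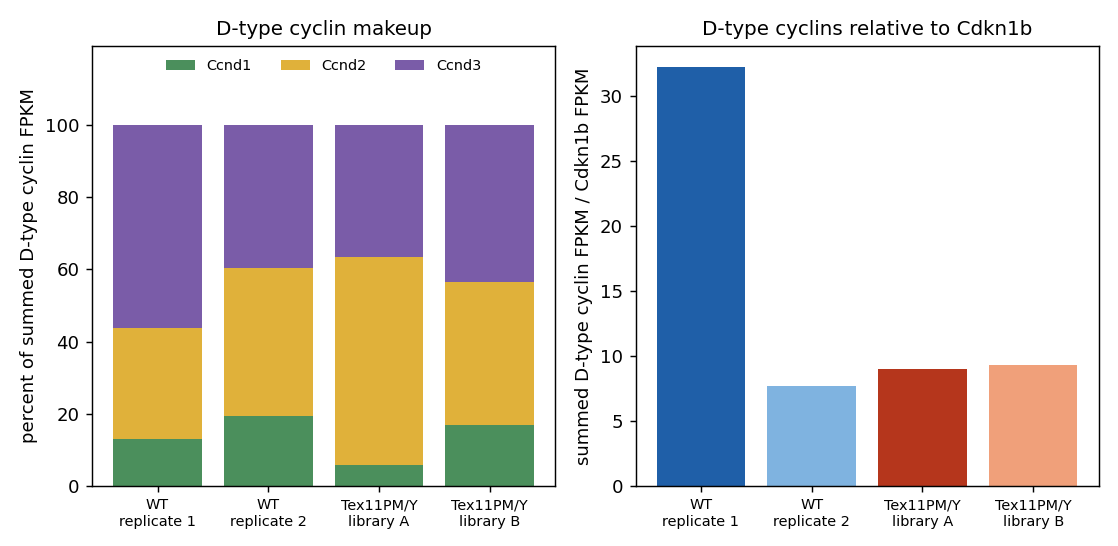
Left, the percent of summed D-type cyclin FPKM held by Ccnd1, Ccnd2 and Ccnd3 in each library. Right, summed D-type cyclin FPKM divided by Cdkn1b FPKM, which is 32.3 in WT replicate 1 and between 7.70 and 9.30 in the other 3 libraries.

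In TMM-scaled CPM, the kinase gene Cdk4 varied less between libraries than almost any other transcript, and it varied more in deposited TPM. Cdk4 (ENSMUSG00000006728.12, chromosome 10, 127063534 to 127067920, plus strand) encodes the main partner of D-type cyclins. The WT libraries gave 203 and 199 CPM, library A 212 and library B 209, from 3605 to 4209 counts. The highest library was 1.06 times the lowest, whereas the median over 10960 genes with a mean of at least 5 CPM was 1.79 times, and 0.310% of those genes had a smaller ratio. In deposited TPM the ratio was 1.33, from 209 to 278, and that of Cdk2 was 1.17. Both Tex11PM/Y libraries lay above both WT libraries by a small margin, with a log2 fold change of 0.067 (standard error 0.27, 95% interval -0.57 to 0.70, edgeR adjusted p = 0.973). Exons of Cdk4 share 641 bases with those of Tspan31 on the other strand. Without a stated use of strand, reads there cannot be told apart, and Tspan31 held 1174 and 580 counts in WT, 445 in library A and 578 in library B. The same limit holds for Ccnd1 with LTO1 (818 shared bases), Ccnd3 with Bysl (361 bases) and Rb1 with Rcbtb2 (105 bases).

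Cdk6 (ENSMUSG00000040274.11, chromosome 5, 3343893 to 3531008, plus strand), the other kinase partner of D-type cyclins, gave 8.03 and 8.65 CPM in WT, 15.5 in library A and 6.98 in library B, from 140 to 308 counts. Library A was the highest and library B the lowest, so the genotypes overlapped. The fitted difference, as a log2 fold change, was 0.43 (standard error 0.57, 95% interval -0.91 to 1.77, edgeR adjusted p = 0.907), and turned to -0.26 without library A.

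Of the E-type cyclins, Ccne1 was high in WT replicate 1 and Ccne2 in library A. Ccne1 (ENSMUSG00000002068.16, chromosome 7, 38097984 to 38107534, minus strand), which encodes cyclin E1, held 28.0 and 12.5 CPM in WT, 13.2 in library A and 13.9 in library B. Its log2 fold change was -0.58 (standard error 0.51, 95% interval -1.78 to 0.62, edgeR adjusted p = 0.884), and turned to 0.092 without WT replicate 1. Ccne2 (ENSMUSG00000028212.16, chromosome 4, 11191354 to 11204779, plus strand), which encodes cyclin E2, held 12.4 and 15.4 CPM in WT, 24.8 in library A and 11.4 in library B. Its log2 fold change was 0.38 (standard error 0.52, 95% interval -0.83 to 1.60, edgeR adjusted p = 0.910), and turned to -0.28 without library A. In each gene 1 library stood above the other 3, which lay close together. Per unit of length Ccne1 was the more abundant in 3 of 4 libraries, with 76.8% and 56.0% of the summed E-type cyclin FPKM in WT, 44.5% in library A and 66.9% in library B. Exons of Ccne2 share 336 bases with Ints8 on the other strand, which held 1048 to 2573 counts against 220 to 492 for Ccne2.

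Cdk2 (ENSMUSG00000025358.16, chromosome 10, 128697939 to 128705030, minus strand), the kinase of the E-type cyclins, had a highest library 1.27 times its lowest in CPM, a smaller ratio being found for 11.05% of the genes compared for Cdk4. The WT libraries gave 73.0 and 67.6 CPM, library A 57.7 and library B 58.8, with means of 70.3 ± 3.79 and 58.3 ± 0.838 CPM (SD, n = 2 each). The groups did not overlap in CPM or FPKM, and did overlap in deposited TPM, where WT had 59.8 and 68.2, library A 65.0 and library B 58.1. The log2 fold change was -0.27 (standard error 0.30, 95% interval -0.98 to 0.44, edgeR adjusted p = 0.894).

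The brake Cdkn1b differed more between the WT libraries than any of the other 9 genes did. Cdkn1b (ENSMUSG00000003031.14, chromosome 6, 134920401 to 134925513, plus strand) held 14.9 CPM in WT replicate 1 and 49.3 CPM in WT replicate 2, from 265 and 974 counts, with 32.2 CPM in library A and 34.1 in library B. Both Tex11PM/Y libraries lay between the WT libraries and close to each other. The genotypes' log2 fold change was 0.049 (standard error 0.56, 95% interval -1.27 to 1.37, edgeR adjusted p = 0.992), and ranged from -0.59 without WT replicate 1 to 1.14 without WT replicate 2. Per unit of length, summed D-type cyclin FPKM was 32.3 times Cdkn1b FPKM in WT replicate 1 and 7.70 times in WT replicate 2. It was 8.97 times in library A and 9.30 times in library B. On the log2 scale the ratio of Cdkn1b to D-type cyclins was -3.98 ± 1.46 in WT and -3.19 ± 0.036 in Tex11PM/Y (SD, n = 2 each; two-sided exact permutation p = 1). The difference in means was 0.79, and -0.25 without WT replicate 1.

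Rb1 (ENSMUSG00000022105.6, chromosome 14, 73195502 to 73325822, minus strand), whose product holds E2F factors in check, was the gene of the set with the largest fitted increase. The WT libraries gave 56.2 and 87.4 CPM, library A 134 and library B 98.1, with means of 71.8 ± 22.0 and 116 ± 25.5 CPM (SD, n = 2 each). The groups did not overlap, but WT replicate 2 and library B lay nearer to each other than either lay to the other library of its genotype. The germ cell marker sum was, like Rb1, lowest in WT replicate 1 and highest in library A, as were its members Ddx4 and Dazl. Its other members were not: Tex101 was highest in WT replicate 1 (247 CPM) and Dppa3 lowest in library A (5.34 CPM). Mael was highest in library B (489 CPM) and Sycp3 in WT replicate 2 (60.5 CPM). The part of germ cell content in the Rb1 count was not tested. The log2 fold change was 0.69 (standard error 0.35, 95% interval -0.13 to 1.52, edgeR adjusted p = 0.884), and ranged from 0.39 without WT replicate 1 to 1.02 without WT replicate 2.

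Libraries of the same genotype differed by more than counting error at most of these genes, as they did at most genes tested. WT replicate 2 differed from replicate 1 beyond the 95% counting interval of their ratio for 7 of the 10 genes, beside 67.5% of all genes tested and 79.8% of those with a mean of at least 5 CPM. Library B differed from library A for 6 of the 10, beside 69.6% and 80.7%. The interval covers counting error only, since reads without molecular identifiers need not be independent molecules. The log2 ratio of WT replicate 2 to replicate 1 was 1.73 for Cdkn1b (95% counting interval 1.53 to 1.93) and -1.16 for Ccne1 (-1.39 to -0.94). The log2 ratio of library B to library A was 1.60 for Ccnd1 (1.43 to 1.77), -1.15 for Cdk6 (-1.45 to -0.86) and -1.12 for Ccne2 (-1.35 to -0.89). For 7 of the 10 genes 1 of these ratios within a genotype exceeded the genotype's own log2 fold change, which was so for 82.9% of all genes tested. The exceptions were Cdk2, Cdk4 and Rb1. Library A was the highest library for 5 of the 10 genes, against 35% of all genes tested, and the lowest for 3, against 34.4%.

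**Figure D3:**
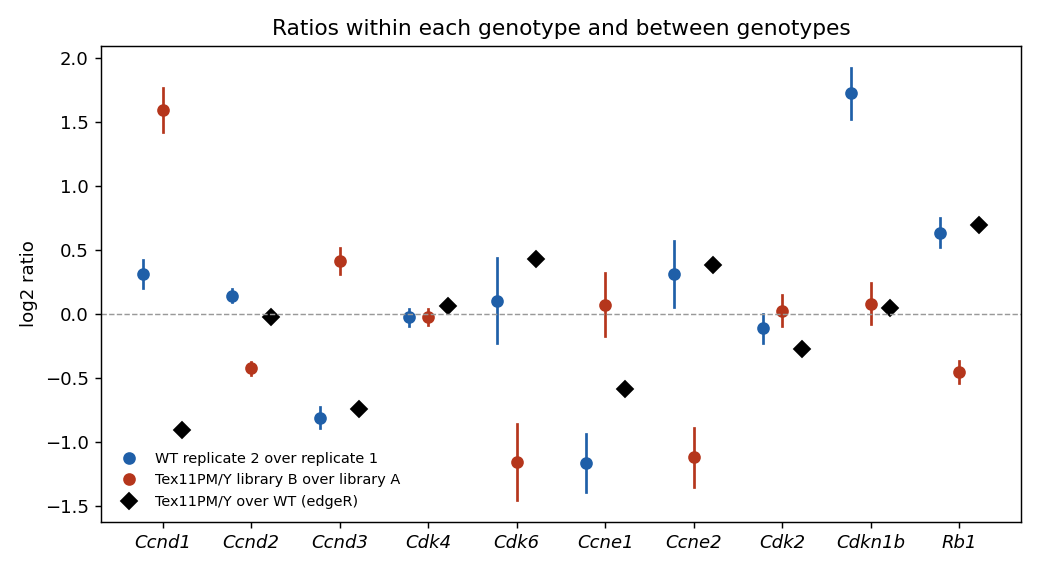
Log2 ratios of the libraries within each genotype (blue and red points, with bars for the 95% counting interval) and the edgeR log2 fold change between genotypes (black diamonds). The within-genotype ratio of Cdkn1b reaches 1.73 in WT and that of Ccnd1 1.60 in Tex11PM/Y, both larger in size than any genotype difference shown.

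**Figure D4:**
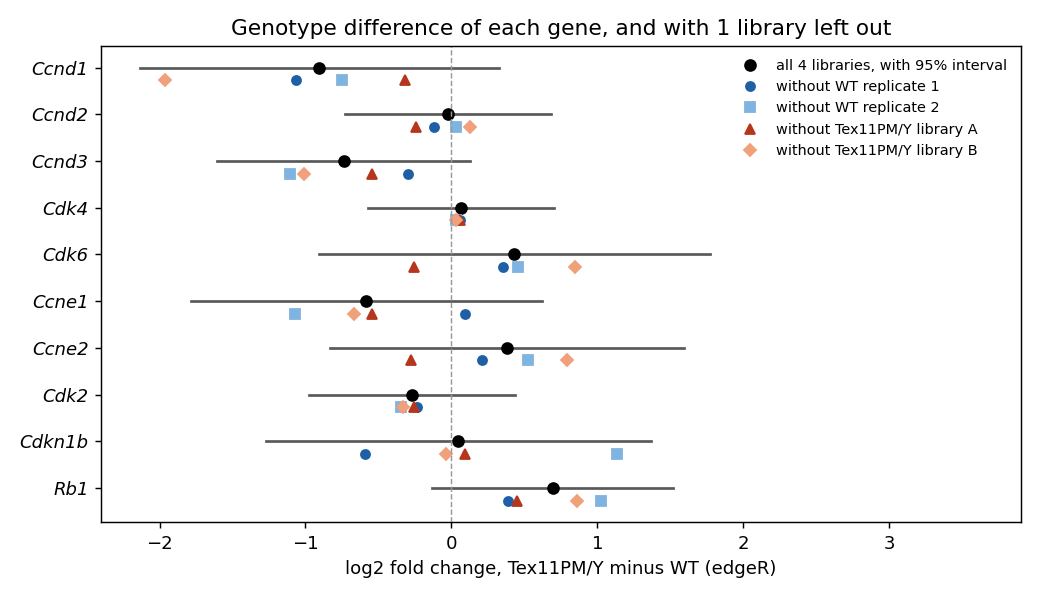
The edgeR log2 fold change of each gene with all 4 libraries (black point, with its 95% interval) and with each library left out (colored symbols below it). All 10 intervals include 0, and leaving out 1 library moves Ccnd1 between -1.96 and -0.32 and Cdkn1b between -0.59 and 1.14.

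Within the set, Ccne2 and Cdk6 had the closest profiles over the 4 libraries, with a root-mean-square distance of 0.076 between their log2 CPM values after each was centred on its mean. Ccnd3 and Ccne1, both highest in WT replicate 1, lay 0.21 apart, and Ccnd1 and Cdk6, opposite in library A, lay 1.20 apart. By the same measure over 10960 genes, the profile nearest to that of Ccnd3 was Rps15a (distance 0.020), a ribosomal protein gene with 1106 and 650.3 CPM in WT, 463 in library A and 608 in library B, followed by Rplp0 (0.022). Within 0.1 of Ccnd3 were 119 genes, of which 27, or 22.7%, have symbols of the Rpl or Rps form used for ribosomal protein genes. Genes with such symbols were 0.839% of those considered, and the form can also take in genes of other products. The count of 27 was made after Rps15a and Rplp0 were seen. For the other D-type cyclins, the nearest were Lhx8 (0.041) and Psmb8 (0.088) to Ccnd1, with 2 genes within 0.1 in all, and Timm21 (0.010) and Snrpb2 (0.013) to Ccnd2. Nearest to Cdkn1b were Grik3 (0.077) and Col2a1 (0.093), to Rb1 Zscan22 (0.023) and Unc13b (0.026), and to Ccne1 Amigo2 (0.031) and Pfkfb1 (0.033). Ccne2 had Nek1 (0.016) and Ccnc (0.019), Cdk6 had Tmem68 (0.015) and Stox2 (0.018), Cdk2 had Eif4e2 (0.015) and Uqcrc2 (0.019), and Cdk4 had Alyref (0.010) and Ado (0.014). With 4 libraries many genes share a profile, 614 of them lying within 0.1 of Cdk4, so likeness is a description only.

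Among other genes of the pathway, the remaining inhibitors of cyclin-dependent kinases were the group most often fitted lower in Tex11PM/Y, though 0 of 6 passed. Of all genes tested, 0% passed. All 6 inhibitors were fitted lower, with a median log2 fold change of -0.81, beside 49% of all genes tested fitted lower and a median of 0.014. Cdkn1a, the p21 gene, held 310.4 and 101 CPM in WT, 47.9 in library A and 104 in library B (log2 fold change -1.44 with a standard error of 0.60, edgeR adjusted p = 0.884, unadjusted p = 0.0494). Cdkn2a, whose count joins the transcripts of p16 and p19ARF, held 91.9 and 70.2 CPM in WT, 33.9 in library A and 77.6 in library B. The INK4 genes Cdkn2b, Cdkn2c and Cdkn2d, whose products block CDK4 and CDK6, had log2 fold changes of -0.89, -0.96 and -0.74, and the p57 gene Cdkn1c had -0.33. WT replicate 1 was the highest library for 6 of 6 of these genes, beside 34.2% of all genes tested, and library A the lowest for 5, beside 34.4%, the same ends as those of the fibroblast marker sum, whose part in these counts was not tested. The median was -0.35 without WT replicate 1 and -1.34 without library B.

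The pocket protein and E2F list showed no common direction, with 6 of 12 fitted higher, 6 lower and 0 passing. Of all genes tested, 51% were fitted higher, 49% lower and 0% passed. Rbl1, a relative of Rb1, had a log2 fold change of 0.47 (standard error 0.41). Rbl2, another, held 12.9 and 4.80 CPM in WT, 3.17 in library A and 3.84 in library B. Rbl2 and Tfdp1 lie on chromosome 8, raised in WT replicate 1, where both were highest. E2f6 and Mnat1 lie on chromosome 12, raised in WT replicate 2, where E2f6 was highest (137 CPM). The factor genes E2f1, E2f2, E2f6 and E2f8 had -0.097, -0.84, -0.048 and 0.47, and Tfdp1, the most abundant of the list by count and a partner of E2F proteins, had -0.17. Other G1 and S regulators were split too, with 10 of 21 fitted higher, 11 lower, 0 passing and a median of -0.043. The median over all genes tested was 0.014. Cul1, the scaffold of the ubiquitin ligase that degrades p27, had a log2 fold change of 0.52 (standard error 0.40), and Skp1a, its adaptor, -0.19. Ccna1, a cyclin of meiosis, held 0.843 and 1.62 CPM in WT, 0.252 in library A and 0.897 in library B. The p53 target Ccng1 had -0.44, Mnat1 of the CDK-activating kinase -0.39, Gsk3b 0.16 and the CDK4 chaperone Cdc37 -0.20.

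Genes that E2F switches on at the start of S phase showed no common direction, with 13 of 30 fitted higher, 17 lower and 0 passing. Over all genes tested, 51% were fitted higher, 49% lower and 0% passed. The list had a median log2 fold change of -0.059, beside 0.014 over all genes tested. The listed genes summed to 4117 and 3893 CPM in WT, 3632 in library A and 3998 in library B. Mcm2 and Mcm7, of the replicative helicase, had log2 fold changes of -0.15 and 0.15, and Uhrf1, which reads hemimethylated DNA, had -0.050. The thymidylate synthase gene Tyms had 0.62 (standard error 0.39), with 15.6 and 19.4 CPM in WT, 26.6 in library A and 27.4 in library B. The thymidine kinase gene Tk1 had -0.79 (standard error 0.53), Mcm5 -0.38 and Gins2 -0.67. Mcm5 and Gins2 lie on chromosome 8. Of 30 promoter runs found for 25 of these genes, 6 held an E2F motif, or 20%, beside 1.86% of all runs. Some genes have more than 1 run, so these are counts of runs and not of genes. The genes were listed as E2F targets beforehand, so the share is no separate evidence about them.

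**Figure D5:**
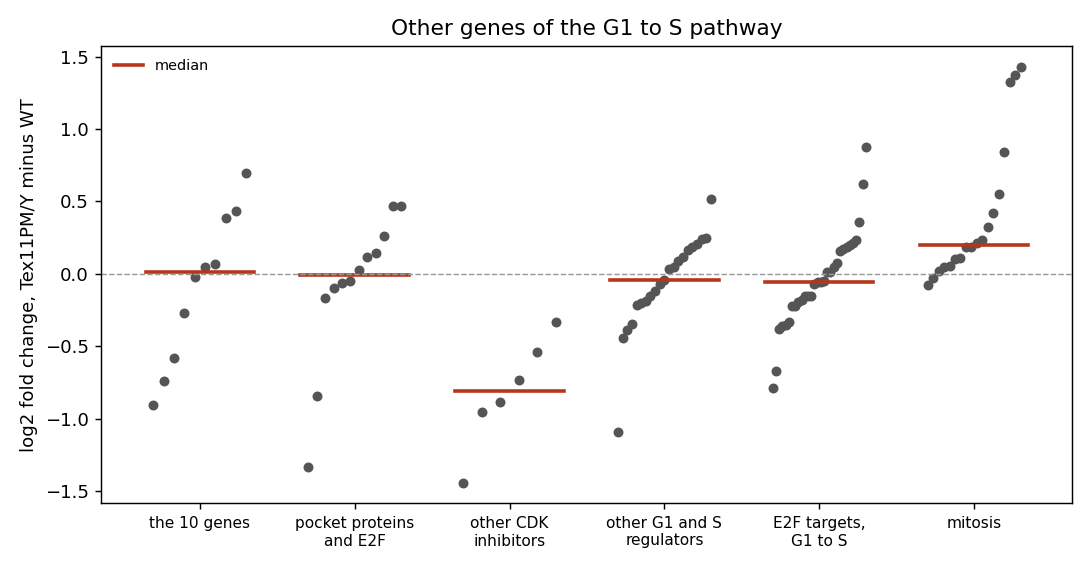
The edgeR log2 fold change of each gene (points, sorted within a list) for the 10 genes and 5 further lists, with the median of each list as a red line. The other CDK inhibitors have a median of -0.81 and the mitosis genes 0.20, and the remaining medians lie between -0.059 and 0.013.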

How the data were processed

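The authors deposited 3 tables: whole-number, unnormalized counts of reads per gene in featureCounts layout, FPKM values and TPM values, per the file headers. Tools listed in the submitters' processing notes, without roles or versions, are StringTie, STAR, fastp, DESeq2 and featureCounts, with mm10 as build. The release of the gene annotation was not given in the sources used here. Per the labels' protocols, the library kit is one for which no strand marking is stated. Because the Tex11PM/Y columns repeat 1 name and 1 replicate number, they carry no replicate number here.

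Gene counts were filtered with filterByExpr, scaled with TMM and tested with robust quasi-likelihood F tests in edgeR 4.0.16 (R 4.3.3). Genotype was the single term, and p-values were adjusted by Benjamini-Hochberg over 17262 genes (threshold 0.05). Log2 CPM used a prior count of 2. The fit was run on simulated data with known changes, where recovery was required only at a spread well below that of these data. The biological coefficient of variation of these data was 43.4%. Nothing is read from the simulation about the changes that the test could detect here. Other settings tried were no filter, a filter of 1 CPM in 2 libraries, scaling by library size alone or by DESeq2 size factors, the DESeq2 1.42.0 test, limma 3.58.1 on log2(FPKM + 1), log2(FPKM + 0.1) and log2(TPM + 1) for genes of at least 1 in 2 libraries, and each library left out. Shares and ratios between genes used FPKM, with TPM and counts per kilobase as alternatives.

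The 10 genes and the lists were chosen with earlier results of these data known. Named genes were the 10 and Tex11, the 2 genes of at least 5 CPM nearest in profile to each of the 10, and, in lists of G1 regulators and E2F targets, the 4 smallest p and the 3 highest mean CPM. Promoters were matched by symbol to a RefSeq table of build GRCm38.p6. A count of 0 allows up to 3 counts, or between 0.149 and 0.169 CPM at these depths.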

Additional observations from a re-analysis of the deposited data

How the results depend on the processing

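No paired analysis was possible because no label ties a WT library to a Tex11PM/Y library. Under the 8 alternatives that kept all libraries, 9 of the 10 genes kept, where fitted, the sign of their log2 fold change and none of the 10 passed the threshold. Ccnd2 turned from -0.023 to 0.040 with library size alone, 0.058 and 0.059 with limma on log2(FPKM + 1) and log2(FPKM + 0.1), and 0.18 with limma on log2(TPM + 1); the cause was not tested. Cdk6 missed the FPKM filter of limma and has no value there. Without any filter edgeR called 16 genes higher and 34 lower, and DESeq2 called 1 higher and 0 lower, against 0 and 0. With 1 library left out, calls ranged from 0 to 74 higher and from 0 to 444 lower, the largest without library B, where Ccnd1 passed. Across left-out libraries log2 fold changes ranged from -1.96 to -0.32 for Ccnd1, -0.25 to 0.13 for Ccnd2, -1.10 to -0.30 for Ccnd3, -1.07 to 0.092 for Ccne1, -0.28 to 0.79 for Ccne2, -0.26 to 0.85 for Cdk6 and -0.59 to 1.14 for Cdkn1b, and those of Cdk2, Cdk4 and Rb1 kept their sign. Tex11 passed without library B (-2.13) and with no filter (-2.63). The difference in share between genotypes ranged from -10.6 to 0.77 percentage points for Ccnd1, 3.46 to 21.7 for Ccnd2 and -16.0 to 0.56 for Ccnd3, and the log2 ratio of Cdkn1b to D-type cyclins from -0.25 to 1.82. TPM gives the same shares as FPKM by construction. List medians, left out likewise after the data were seen, ranged from -0.19 to 0.11 for pocket and E2F genes, -1.34 to -0.35 for CDK inhibitors, -0.14 to 0.015 for other regulators, -0.14 to -0.018 for E2F targets and -0.078 to 0.49 for mitosis genes.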

Other observations

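Genes of mitosis were lowest in WT replicate 1 for 17 of 18 list members, beside 34.4% of all genes tested, and highest in library A for 9, beside 35%. The germ cell marker sum was also lowest in WT replicate 1 (1418 CPM) and highest in library A (2314 CPM), and the fibroblast marker sum ran the other way (19834 and 599 CPM). Among the germ cell markers Ddx4 and Dazl had these ends, while Tex101, Dppa3, Mael and Sycp3 did not. The part of either cell type in the mitosis counts was not tested. Of the 18, 16 were fitted higher in Tex11PM/Y, beside 51% of all genes tested, and 0 passed the threshold, beside 0%, with a median log2 fold change of 0.20 that turned to -0.078 without WT replicate 1. The centromere protein gene Cenpf held 80.3 and 163 CPM in WT, 507 in library A and 123 in library B, and the proliferation marker gene Mki67 held 55.6, 112, 350.0 and 68.5 CPM in the same order. The mitotic kinesin gene Cenpe held 25.5, 76.0, 224 and 49.2 CPM. Kif11 (37.6, 97.9, 165 and 78.3 CPM) and Bub1 (48.3, 124, 159 and 93.6 CPM) were also highest in library A. Some other mitosis genes were far more even: the cyclin gene Ccnb1 held 162, 259.7, 211 and 268 CPM, and Aurkb 59.1, 65.0, 62.6 and 83.2 CPM. The mitosis genes named here were chosen after their values were seen.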
